A study of Mus musculus with 4 samples.

Results

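The genes of the Polycomb repressive complexes were followed here across haploid and diploid mouse embryonic stem cells (ESCs). The members were 10 genes, chosen by matching the accession of each array probe to a gene symbol: Ezh2, Eed and Suz12 (the core of PRC2), Jarid2 and Mtf2 (its accessory subunits), Rnf2 and Ring1 (the RING subunits of PRC1), Cbx7 (a canonical PRC1 subunit), and Pcgf6 and Kdm2b (subunits of variant PRC1). Of these 10, 9 were among the 17962 features tested, and 13040 of those features carried a gene symbol. Each member had 1 probe except Kdm2b, which had 2, so the 10 genes were read by 11 probes.

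Polycomb complexes keep genes of development silent. PRC2 adds methyl groups to a lysine of histone H3 through EZH2, which works only together with EED and SUZ12. PRC1 adds ubiquitin to histone H2A through RNF2 or RING1, and its canonical form carries a CBX subunit that binds the mark left by PRC2, while its variant forms carry other partners. In ESCs the targets include HOX genes and lineage factors, which stay at a low level until differentiation.

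The samples were 2 parthenogenetic haploid and 2 parthenogenetic diploid ESC samples, all labelled female. Such cells derive from an activated oocyte without sperm, so both groups shared an all-maternal genome. In each group the labels name a line 1 and a line 2, and the design text counts 2 independent experiments per cell type. Strain, passage, culture and any shared origin of equally numbered lines are not given in the sources used here. Haploid ESCs tend to turn diploid in culture, and the series' title places the comparison in the context of the passage from G2 into mitosis. RNA (0.2 ug per sample) was hybridised to 1-colour Agilent arrays on 1 slide. The array's 75th percentile of signal was 526 and 553 intensity units in haploid and 617 and 907 in diploid cells. Well above background were 53.6% and 59.7% of probes on the haploid arrays and 55.1% and 65.0% on the diploid arrays. By the 75th percentile both diploid arrays were brighter than the haploid arrays before scaling, diploid replicate 2 most of all. Diploid replicate 1 still had a smaller share of probes well above background than haploid replicate 2. The number of arrays limits the precision of every value. All 10 ESC markers checked, Pou5f1, Sox2 and Nanog among them, were well above background on all 4 arrays.

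None of the 9 tested Polycomb members passed the test between haploid and diploid cells (limma with Benjamini-Hochberg adjustment over all features, threshold 0.05), and 0 of 9 had an unadjusted p under 0.05. Over all features the same fit called 20 of 17962, or 0.111% (0.0835% higher and 0.0278% lower in haploid cells), and 11.7% had an unadjusted p under 0.05. The smallest adjusted p of a member was 0.437, for Pcgf6. The differences (haploid minus diploid, log2) were small and lay from -0.40 for Pcgf6 to 0.02 for Eed, with 8 of 9 below 0 against 46.8% of all features. For 5 of 9 members, Ezh2, Suz12, Rnf2, Ring1 and Pcgf6, both haploid values lay below both diploid values. Over all features such groups, with haploid lower, made up 20.9%, and no member had the reverse order, which 26.0% of features had. Among features well above background on all 4 arrays these shares were 19.9% and 26.6%, and 45.3% of differences were below 0. All 9 were well above background on every array, so none entered the fit through 1 group alone. In bulk RNA, fewer cells that express a gene and less of its RNA per cell cannot be told apart. With the probes tested singly, 0 of 10 member probes and 0.161% of all probes were called.

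**Figure D1:**
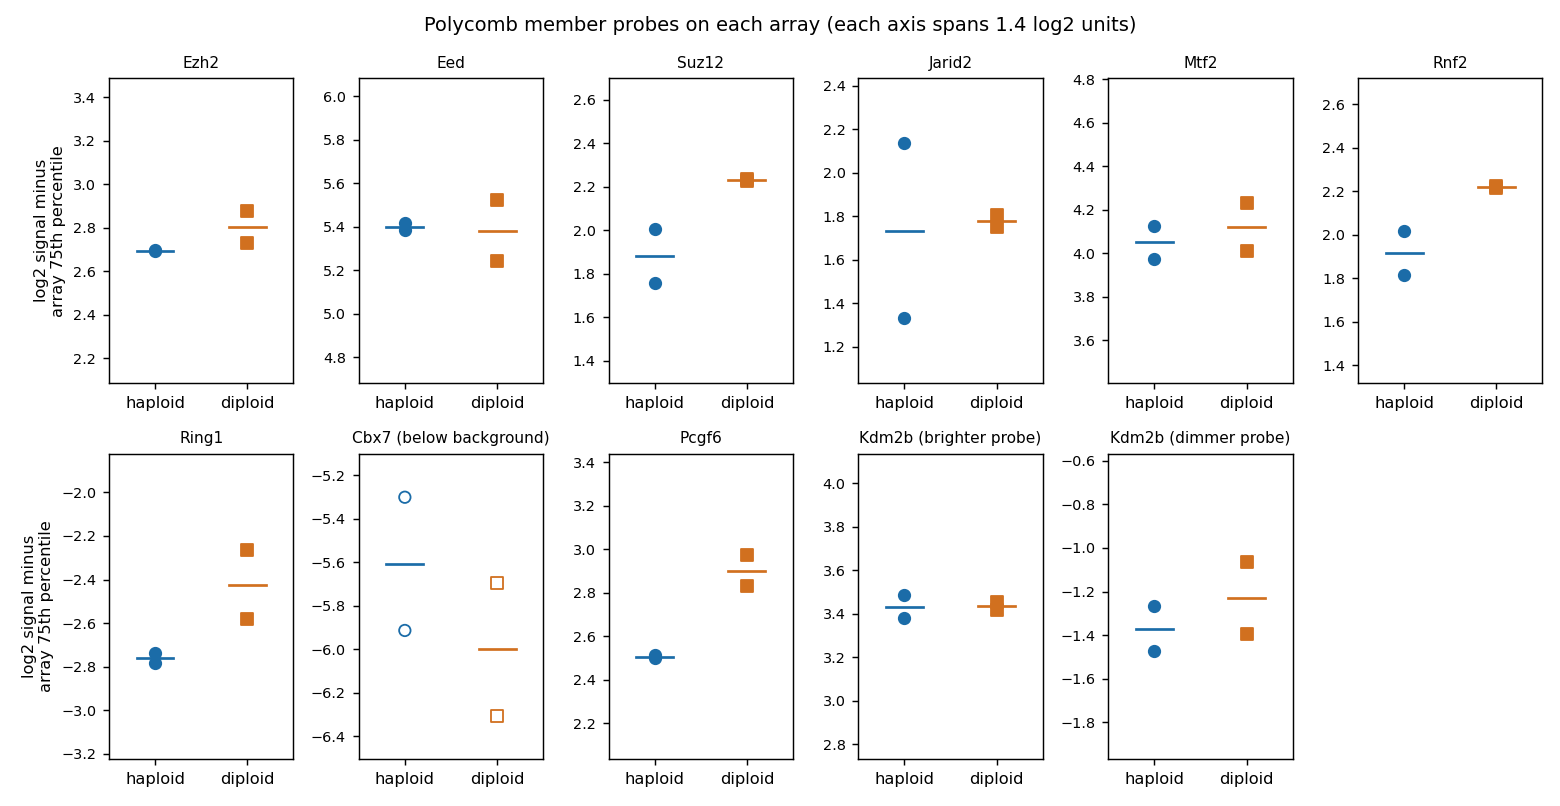
Values of the 11 member probes, 1 panel per probe, as log2 signal minus the array's 75th percentile. Points are the 2 haploid arrays (circles) and the 2 diploid arrays (squares), short lines are group means, and open symbols mark Cbx7, which was not well above background. The haploid points lie below the diploid points for Ezh2, Suz12, Rnf2, Ring1 and Pcgf6, and Jarid2 shows the widest gap between haploid arrays (0.80).

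The 4 members with the lowest differences among these were Pcgf6, Suz12, Ring1 and Rnf2, chosen for display after their values were seen. Their promoters are shown because DNA rich in the dinucleotide CG is what KDM2B, through its CXXC zinc finger, and MTF2 bind. Each line gives the 250 bases before the gene's start, 5′ to 3′ on the gene's strand, with every CG in capitals (RefSeq, GRCm38.p6, first start listed).
Suz12: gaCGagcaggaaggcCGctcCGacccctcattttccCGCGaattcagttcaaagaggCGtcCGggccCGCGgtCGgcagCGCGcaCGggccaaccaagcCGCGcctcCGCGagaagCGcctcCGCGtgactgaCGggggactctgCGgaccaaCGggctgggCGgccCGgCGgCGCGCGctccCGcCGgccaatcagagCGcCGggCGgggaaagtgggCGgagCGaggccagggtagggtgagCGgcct
Rnf2: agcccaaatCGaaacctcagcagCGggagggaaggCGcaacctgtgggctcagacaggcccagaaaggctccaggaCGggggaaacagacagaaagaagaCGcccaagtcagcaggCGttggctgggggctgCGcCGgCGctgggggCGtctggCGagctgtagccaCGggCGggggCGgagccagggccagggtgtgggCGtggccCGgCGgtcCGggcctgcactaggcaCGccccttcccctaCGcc
Ring1: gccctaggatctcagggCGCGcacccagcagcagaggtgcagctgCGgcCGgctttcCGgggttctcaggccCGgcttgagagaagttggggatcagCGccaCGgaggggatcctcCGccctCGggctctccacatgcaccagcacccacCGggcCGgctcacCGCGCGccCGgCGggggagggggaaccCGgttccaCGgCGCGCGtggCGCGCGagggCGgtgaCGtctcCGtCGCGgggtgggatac
Pcgf6: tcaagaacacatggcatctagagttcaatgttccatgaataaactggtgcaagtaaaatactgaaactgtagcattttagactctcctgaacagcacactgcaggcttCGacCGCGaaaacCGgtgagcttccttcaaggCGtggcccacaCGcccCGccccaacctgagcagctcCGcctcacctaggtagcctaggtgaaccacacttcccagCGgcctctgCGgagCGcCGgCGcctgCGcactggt
They lie at chr11:79992856-79993105 (plus strand) for Suz12, chr1:151500992-151501241 (minus strand) for Rnf2, chr17:34024681-34024930 (minus strand) for Ring1 and chr19:47050907-47051156 (minus strand) for Pcgf6. The Suz12 promoter held 37 CG dinucleotides, more than 96.4% of the 10443 tested genes with a listed promoter. Ring1 held 30, Rnf2 20 and Pcgf6 14, against a median of 15 over those tested genes. The first-listed promoters of all 10 members held a median of 23 CG, from 12 in Eed and Kdm2b to 37 in Suz12; 3 further listed starts of Kdm2b held 27 to 38, the second of Jarid2 held 22 and that of Mtf2 only 2, more than 4.8% of tested genes. These counts describe the sequence only, since no methylation or binding was measured.

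Within the PRC2 core, Suz12 differed most. Suz12, the subunit that holds the complex together, stood at 2.01 and 1.76 on the haploid arrays and at 2.24 and 2.23 on the diploid arrays (log2 signal relative to the array's 75th percentile, as for all levels here). Both haploid values lay below the diploid pair, which differed by only 0.008. The difference was -0.35 ± 0.18 (SE, n = 2 per group), with a 95% interval from -0.78 to 0.08 and a limma adjusted p of 0.50, so a diploid level 1.27-fold that of haploid cells was measured without passing the test. A lower difference was found in 12.5% of all features. Suz12 differed by -0.23 without haploid replicate 2 and by -0.07 with normexp background correction fitted on all spots.

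Ezh2, the methyltransferase, was at 2.70 and 2.69 in haploid and at 2.88 and 2.73 in diploid cells. The haploid values were nearly identical and lay just under the lower diploid value. The difference was -0.11 ± 0.17 (95% interval -0.52 to 0.30, limma adjusted p = 0.811). Eed, which reads the mark that EZH2 writes, was at 5.42 and 5.38 in haploid and at 5.52 and 5.24 in diploid cells. The haploid pair lay between the diploid values. The Eed difference was 0.02 ± 0.18 (95% interval -0.42 to 0.46, limma adjusted p = 0.974).

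The PRC2 accessory subunits overlapped between the groups. Jarid2, a subunit that helps bring PRC2 to its targets, was at 2.13 on haploid replicate 1 and at 1.33 on haploid replicate 2, with the diploid arrays between them at 1.75 and 1.80. The gap of 0.80 between haploid replicates was exceeded by only 5.50% of features. The difference was -0.04 ± 0.28 (95% interval -0.72 to 0.64, limma adjusted p = 0.959), and it was -0.44 without haploid replicate 1 and 0.36 without haploid replicate 2. Mtf2, a DNA-binding partner of PRC2, was at 3.97 and 4.13 in haploid and at 4.23 and 4.01 in diploid cells. The diploid values bracketed the higher haploid one. Mtf2 differed by -0.07 ± 0.18 (95% interval -0.51 to 0.37, limma adjusted p = 0.890), and by 0.04 without diploid replicate 1.

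Both RING subunits of PRC1, the ubiquitin ligases, had lower haploid values. Rnf2, the main ligase of ESCs, was at 2.02 and 1.81 in haploid and at 2.22 on each diploid array. The diploid values agreed within 0.006, and the haploid values lay 0.20 apart below them. The difference was -0.30 ± 0.17 (95% interval -0.72 to 0.12, limma adjusted p = 0.528), and -0.20 without haploid replicate 2. Its paralog Ring1 was at -2.78 and -2.74 in haploid and at -2.58 and -2.27 in diploid cells. For Ring1 the haploid pair was close and the diploid pair 0.32 apart. Ring1 differed by -0.34 ± 0.19 (95% interval -0.79 to 0.12, limma adjusted p = 0.521), and by -0.18 without diploid replicate 2.

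Cbx7, a canonical PRC1 subunit that binds the PRC2 mark, was the only member left out of the fit. Its probe was not well above background on any of the 4 arrays, with values of -5.30 and -5.91 in haploid and -5.70 and -6.31 in diploid cells. No direction is drawn from values below background.

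The variant PRC1 subunits included the member with the largest difference. Pcgf6, which defines the variant complex with MGA and E2F6, was at 2.50 and 2.51 in haploid and at 2.83 and 2.97 in diploid cells. The haploid arrays were 0.01 apart, the diploid arrays 0.15, and the groups were separate. The difference was -0.40 ± 0.17 (95% interval -0.80 to 0.01, unadjusted p = 0.056, limma adjusted p = 0.437), or a diploid level 1.32-fold that of haploid cells. A lower difference was found in 10.1% of all features. Kdm2b, which brings variant PRC1 to CpG islands, was at 3.38 and 3.49 in haploid and at 3.46 and 3.42 in diploid cells on its brighter probe. These values interleave, and the difference was -0.003 ± 0.17 (95% interval -0.41 to 0.40, limma adjusted p = 0.996). The dimmer Kdm2b probe was at -1.48 and -1.27 in haploid and at -1.40 and -1.06 in diploid cells. It differed by -0.14 ± 0.20 (probe fit, limma adjusted p = 0.802), so the probes shared a sign and neither passed.

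**Figure D2:**
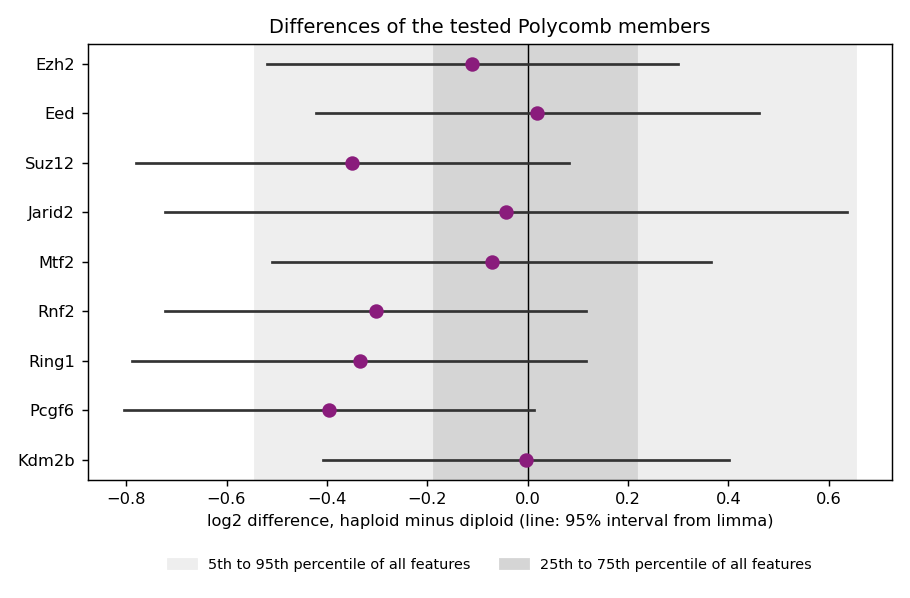
Log2 differences, haploid minus diploid, of the 9 tested members (points) with 95% intervals from the limma fit (lines). Grey bands give the 5th to 95th (-0.54 to 0.65) and 25th to 75th (-0.19 to 0.22) percentiles of all features; every interval includes 0, and Suz12, Rnf2, Ring1 and Pcgf6 lie below the inner band but within the outer one.

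As a group the 9 members had a median difference of -0.11, beside 0.02 over all features. Differences varied with signal: with features ordered by brightness in 10 equal classes, the median difference was -0.17 for the lowest class and 0.22 for the top one. Eed, in the top class, differed by 0.02 where its class had a median of 0.22, and Pcgf6, in a class with a median of 0.04, by -0.40. The members' median was -0.20 with quantile normalization, -0.19 with cyclic loess and -0.20 with the authors' value table, and 9 of 9 members were then below 0. Under each of these, 7 of 9 members had haploid values below diploid values, with Eed and Mtf2 added, beside 25.4%, 22.4% and 25.4% of features. Scaling each array to its median adds 0.07 to every difference, so that the median of all features was 0.10 and that of the members -0.04. With that scaling 5 of 9 members were below 0, and only Pcgf6 and Ring1 stayed separate, beside 14.7% of features. Without haploid replicate 1 the members' median was -0.31, with 6 of 9 below 0. The count below 0 was also 6 without diploid replicate 1, and it was 7 without haploid replicate 2 and 9 without diploid replicate 2. No member passed in any of the settings tried (smallest adjusted p = 0.240).

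Normexp background correction fitted on all spots gave another picture. It turned Ezh2 to 0.24, Jarid2 to 0.29, Mtf2 to 0.29, Kdm2b to 0.33, Rnf2 to 0.03 and Pcgf6 to 0.004, and the members' median to 0.25, while it moved the median of all features by -0.13. Diploid replicate 2 held 14 spots with local background over 2 times the array's median, and the other arrays held 0. With these 14 spots kept out of the fit of the correction, 8 of 9 members were again below 0, Pcgf6 at -0.42 and Suz12 at -0.43. Suz12 and Ring1 were below 0 in all 15 alternatives run for them, which reuse the same arrays. The size varied for Ring1, the dimmest tested member. It was -0.87 with normexp fitted on all spots and -0.12 with the 14 spots kept out of the fit.

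**Figure D3:**
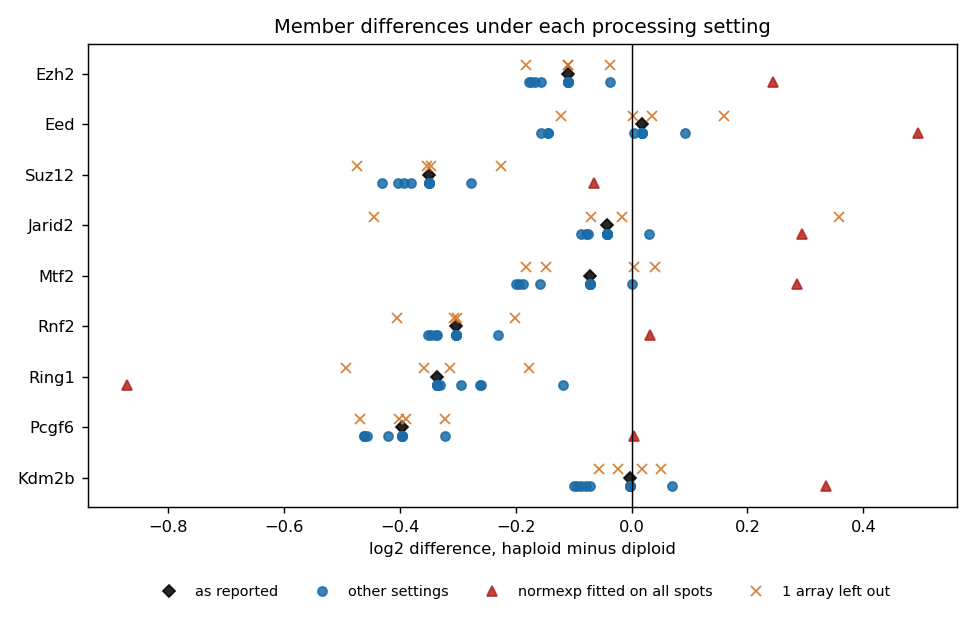
Log2 differences, haploid minus diploid, of each tested member as reported (diamonds), with 1 array left out (crosses), with normexp fitted on all spots (triangles) and in the other settings (circles). The triangles lie above 0 for 7 of 9 members, and Suz12 and Ring1 are below 0 in every setting shown.

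For each PRC2 core gene other features had close profiles on the 4 arrays, a small share of those compared. By Euclidean distance between values centred on each gene's mean, the nearest named genes to Ezh2 were Bcl2l12, Klc3 and Mta3 (0.02 to 0.03), and 281 of 16733 features lay within 0.1. For Eed they were Eif2ak4, Ccdc58 and Tubb6 (0.006 to 0.02, with 322 features within 0.1), and for Suz12 they were Srpk1, Dock11 and Pnma2 (0.04, with 111 features within 0.1).

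The other genes of the complexes were not called either. Of 34 further PRC1 and PRC2 genes 30 were tested and 0 were called by limma. An unadjusted limma p under 0.05 was found for 2 of 30, beside 11.7% of all features. The median difference of the 30 was -0.06, with 18 of 30 below 0 beside 46.8% of all features. Haploid values lay below diploid values in 8 of 30 and above in 3, beside 20.9% and 26.0% of all features. Cbx8 and Phc3 did not pass the filter on dim probes, and Scml2 and Auts2 had no matched probe.

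Among the other PRC2 genes Rbbp7, a histone-binding subunit shared with other chromatin complexes, was the highest. It was at 6.23 and 6.18 in haploid and at 5.78 and 5.62 in diploid cells. The groups were separate, and the difference was 0.50 ± 0.17 (limma adjusted p = 0.340), with a second probe at 0.13. Rbbp7 lay in the top brightness class, with a median of 0.22, and differed by 0.32 with quantile normalization. Its paralog Rbbp4 differed by 0.11 ± 0.17, or by -0.08 with quantile normalization. Aebp2, an accessory subunit, was the lowest at -0.64 ± 0.34 (limma adjusted p = 0.514). Its haploid replicates lay 1.07 apart, at -0.13 and -1.19, and both were below the diploid values of -0.01 and -0.03. Without haploid replicate 2 the Aebp2 difference was -0.11, and its other probe gave -0.20. Ezhip, an inhibitor of PRC2, differed by -0.23 ± 0.21.

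In PRC1 the lowest was Phc1, a Polyhomeotic subunit that joins PRC1 units into larger assemblies. Phc1 was at 1.34 and 1.28 in haploid and at 1.81 and 1.96 in diploid cells. The groups were far apart for their spread, and the difference was -0.58 ± 0.17 (95% interval -0.99 to -0.17, unadjusted p = 0.013, limma adjusted p = 0.284). Mga, the partner of PCGF6 in its variant complex, differed by -0.35 ± 0.18 (limma adjusted p = 0.493), and E2f6, of the same complex, by -0.02 ± 0.17. Max, which pairs with MGA, differed by 0.20 ± 0.19 and Scmh1, a sex comb protein, by 0.36 ± 0.18 (limma adjusted p = 0.692 and 0.50). E2f6 is named for its place beside PCGF6, after its value was seen.

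Enzymes that act against Polycomb, with subunits of their complexes, were looked at next as 1 list, called the opposing enzymes here. Of 15 listed, 12 were tested with 0 called by limma, and 6 lay below 0 and 6 above, with a median of -0.02. An unadjusted limma p under 0.05 was found for 1 of 12, beside 11.7% of all features. Kmt2c, a methyltransferase of the trithorax group, differed by -0.62 ± 0.24 (limma adjusted p = 0.403), or by -0.36 without diploid replicate 1. Kmt2d, its paralog, differed by 0.63 ± 0.37 (limma adjusted p = 0.534), or by 0.07 without haploid replicate 2. Kmt2d stood at -2.37 on that array, at -3.49 on the other haploid array and at -3.38 and -3.74 on the diploid arrays.

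Polycomb target genes were mostly too dim to test. Of 82 listed targets 35 passed the filter, 29 of them on all 4 arrays, 3 through the haploid and 3 through the diploid arrays alone. None of the 35 was called by limma. Of the 29 on all arrays 10 had an unadjusted p under 0.05, beside 11.7% of all features, and their median difference was 0.13, with 15 above 0 and 14 below. The median of the 35 was 0.28 without haploid replicate 1, -0.05 without haploid replicate 2, and -0.09 without diploid replicate 1. It was -0.66 with normexp fitted on all spots and 0.15 with the 14 spots kept out of that fit.

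Among HOX genes, which set position along the body axis, 25 of 33 were not tested. Of the 8 tested 0 were called by limma, and 1 of them entered through the haploid arrays alone. Of the 7 on all arrays 6 lay above 0, with a median of 0.38, beside 9151 of the 16734 features on all arrays. An unadjusted limma p under 0.05 was found for 3 of the 7, beside 11.7% of all features. Hoxb13 was at -0.04 and -0.36 in haploid and at -1.45 and -1.67 in diploid cells. Its haploid values stood clearly above, and the difference was 1.36 ± 0.20 (limma adjusted p = 0.089), or 0.49 with normexp fitted on all spots. Hoxc4 was at -1.93 and -2.03 in haploid and at -3.15 and -3.50 in diploid cells, a difference of 1.34 ± 0.19 (limma adjusted p = 0.085), or -0.007 with normexp fitted on all spots. Each of the pair passed the threshold in 4 of 15 alternatives, which were the trend and robust variance, the filter on all arrays, normexp without the spots of high local background, and leaving out haploid replicate 2 (adjusted p = 0.025 for Hoxb13 and 0.043 for Hoxc4). The last of these leaves 1 haploid array, which is assumed to vary like the diploid pair.

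Of the lineage factors 22 were tested and 0 called by limma, and 5 of these entered through 1 group alone. Of the 17 on all arrays 12 lay below 0, with a median of -0.13, beside 45.3% of the features on all arrays. An unadjusted limma p under 0.05 was found for 4 of the 17, beside 11.7% of all features. Many of the lineage factors were dim. In the dimmest of the 10 brightness classes all features had a median difference of -0.17, and in the next one -0.08. The part of signal level in the lineage factors' median was not tested. Irx3, a homeobox factor, was at -3.95 and -3.87 in haploid and at -3.39 and -2.72 in diploid cells, a difference of -0.86 ± 0.25 (limma adjusted p = 0.280), or -0.53 without diploid replicate 2 and -0.16 with normexp fitted without the 14 spots. Lhx1 differed by -0.52 ± 0.17 and Eomes, a T-box factor of trophectoderm and mesoderm, by -0.43 ± 0.17 (limma adjusted p = 0.332 and 0.413). Of the remaining targets, Cdkn1c, a CDK inhibitor gene expressed from the maternal allele, was at -0.68 and -0.48 in haploid and at -1.71 and -1.80 in diploid cells. It differed by 1.17 ± 0.17 (limma adjusted p = 0.092), or by 0.48 with normexp fitted on all spots. Cdkn1c passed in 3 of 15 alternatives, which were the filter on all arrays, normexp without the 14 spots, and trend and robust variance. These settings called 82, 122 and 425 features, beside 20 as reported. Bmp4, a signalling ligand, differed by -0.86 ± 0.33 (limma adjusted p = 0.395), or by -0.36 without haploid replicate 2 and by -1.37 without haploid replicate 1. That last value passed (limma adjusted p = 0.04) with 1 haploid array, assumed to vary like the diploid pair, while the haploid pair of Bmp4 lay 1.01 apart.

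Markers of other cell types varied beside these targets, and 8 of the marker genes are also on the target list. Of 10 fibroblast markers 9 exceeded background on each of the 4 arrays, and 6 of these 9 had a difference above 0. The summed signal of all 10, in units of the array's 75th percentile, was 9.71 to 12.5 in haploid and 5.59 to 7.57 in diploid cells. For 8 trophectoderm markers, of which 5 were tested and 3 of these lay above 0, it was 14.8 to 17.9 and 13.1 to 13.7, with Elf5 not above background on any array. Tfap2c, the brightest of the 5 tested, differed by -0.14 and Eomes by -0.43. Krt18 differed by 1.23, Krt8 by 1.15 and Gata3 by 1.02, and limma called 0 of the 5. Tfap2c and Krt18 were the brightest of the 5, so they weigh most in the trophectoderm sum. Col1a2, Col1a1 and Thy1, the brightest of the tested fibroblast markers, weigh most in the fibroblast sum. These markers are named after their values were seen. For 8 primitive endoderm markers the summed signal was 3.08 to 3.10 and 2.44 to 2.71, of which Lama1 alone, a laminin gene, made up 90.7% to 95.5%. Of these 8 markers 3 were tested, with 1 above 0 and 2 below, and with Foxa2, Dab2 and Pdgfra not above background on any array. The ESC markers summed to 256 to 260 in haploid and 219 to 249 in diploid cells. The part of other cell types in the values of the target genes and of the Polycomb members was not tested.

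**Figure D4:**
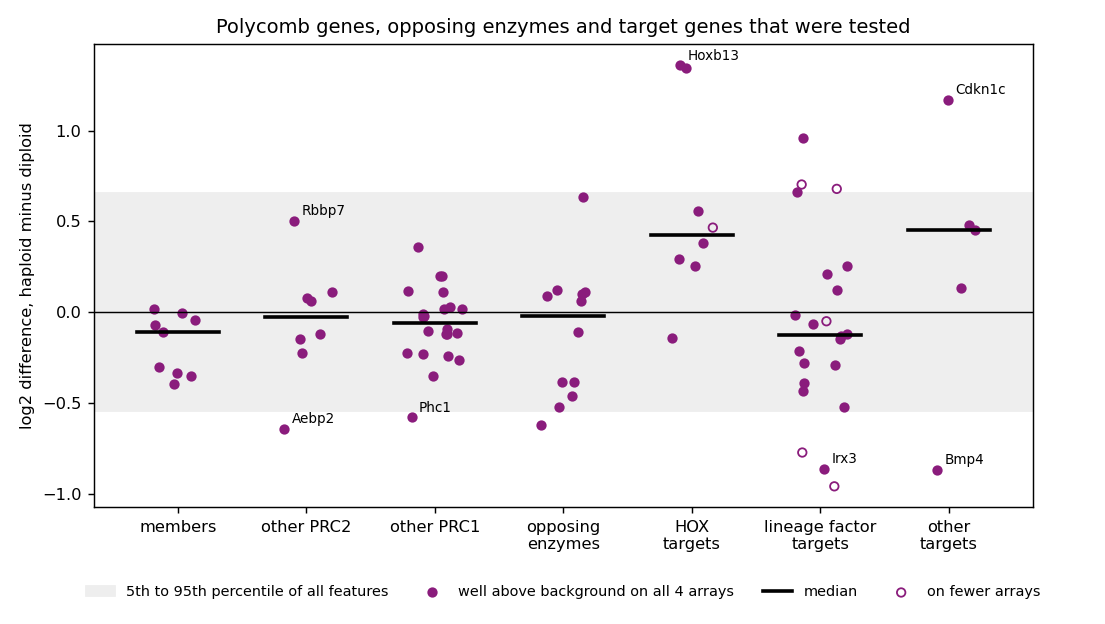
Log2 differences, haploid minus diploid, of the tested Polycomb members, other PRC2 and PRC1 genes, opposing enzymes and 3 groups of target genes, 1 point per gene, with group medians (black lines) and the 5th to 95th percentile of all features (grey). Filled points were well above background on all 4 arrays; the members stay within the grey band. Open points are included in the medians drawn, 0.42 for HOX targets and -0.13 for lineage factors.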

How the data were processed

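Gene expression was measured on 4 Agilent 1-colour arrays. The deposited signal of each spot is a linear, background-subtracted intensity from Feature Extraction 11.0.1.1, per the file headers. The authors' deposited value table also holds linear intensity values, with column medians of 28.4, 28.3, 28.4 and 28.3, and the sources used here do not name its normalization. Within each array its ranking of probes follows that of the scanner signal (Spearman correlation of at least 0.999867). A correlation of ranks does not compare the scale or the arrays with each other.

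Each array's 75th percentile was subtracted from the log2 signals, without control spots and 121 to 168 outlier spots per array. No spot was saturated. Of 39409 probes, 66.1% were named by accession through the RefSeq table (GRCm38.p6; the array design names mm9, so its coordinates were not used). A probe entered if both arrays of at least 1 group flagged it well above background, and the brightest probe stood for its gene. Groups were compared with limma 3.58.1 (lmFit, eBayes, two-sided, R 4.3.3), which was tested on simulated data first; errors are SE and intervals are 95%. Files were read with Python 3.11.15 and pandas 2.3.3.

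Genes named beside the members were those called and the highest and lowest of each list (2 each per complex, 4 each of the targets on all arrays, 1 each of the opposing enzymes), and the 3 nearest profiles to each PRC2 core gene; names outside this rule are marked, and some target genes are not reported here. The members and lists were chosen with earlier results of these data known. Equal sample numbers were not taken as pairs, since the labels state no shared origin. Alternatives covered scaling, background, filter, probe choice, variance, source, a replicate block and leaving out each array.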

Additional observations from a re-analysis of the deposited data

How the results depend on the processing

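The count of called Polycomb members was 0 in all 16 alternatives, including the test of each probe. Where no gene at all was called, that count could not differ from 0. The largest count in the others was 425 of 17962 features, so few calls were made in any setting. The count of all genes called, 20 as reported, was 5 with quantile normalization, 0 with cyclic loess, 89 with the array median, 0 with normexp fitted on all spots, 122 with normexp fitted without the 14 spots, 0 without a filter, 82 with probes well above background on all arrays, 4 with the value table, 425 with trend and robust variance, 35 with each probe tested, and 0 to 293 with 1 array left out (226 without haploid replicate 1, 293 without haploid replicate 2, 0 without either diploid replicate), where the lone array is assumed to vary like the other group. Of the called genes 15 were higher and 5 lower in haploid cells as reported, 76 and 13 with the array median, 118 and 4 with normexp fitted without the 14 spots, and 173 and 120 without haploid replicate 2. With the replicate number as a block the count was 2, both lower, and no call of a member changed. Deviations of equally numbered samples correlated at 0.048 across features, which gave no sign of pairing. This correlation cannot decide whether equally numbered lines share an origin. The scanner files hold a median and no mean spot signal, so both normexp settings use the median signal and were added after seeing the data. Both also add an offset of 50 intensity units before the log. The part of this offset in the values of dim genes was not tested.

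The members' median (-0.11) was -0.199 with quantile normalization, -0.187 with cyclic loess, -0.037 with the array median, 0.245 with normexp fitted on all spots, -0.195 with the value table, and -0.313 to -0.07 with 1 array left out. The median of the other Polycomb genes was 0.014 with the array median, 0.063 with normexp fitted on all spots and -0.105 to -0.021 with 1 array left out. The target genes' median was -0.662 with normexp fitted on all spots and -0.092 to 0.275 with 1 array left out. The cause of these shifts was not tested.

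Signs turned as follows, none for a called gene. With normexp fitted on all spots: Ezh2 0.2447, Jarid2 0.2946, Mtf2 0.285, Rnf2 0.0326, Pcgf6 0.004, Kdm2b 0.3348, Ezhip 0.0525, Scmh1 -0.0008, Hoxc4 -0.0072 and Kmt2d -0.6334. Lhx1 was at 0.0213 with normexp fitted without the 14 spots. With quantile normalization, cyclic loess and the value table, Eed was at -0.1568, -0.1442 and -0.1439 and Rbbp4 at -0.0801, -0.0605 and -0.0637. With the array median, Jarid2 was at 0.0299, Mtf2 at 0.0015 and Kdm2b at 0.0703, by a shift of 0.073 common to all features. With 1 array left out, Eed ran from -0.1215 to 0.1589, Jarid2 from -0.4442 to 0.3582, Mtf2 from -0.1831 to 0.0402, Kdm2b from -0.056 to 0.0508 and Ezhip from -0.4519 to 0.0002. Signal near background limits the target genes and Cbx7 most.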
